A study of Mus musculus with 12 samples.

Results

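The comparison described here set the liver of methionine-restricted progeria knock-in mice (KI_MR) against the liver of wild-type mice on the control diet (WT_CD). It covers 6 of the 12 arrays of the study, 3 in each group, chosen by the genotype and diet in the sample titles. The knock-in mice were homozygous for Lmna G609G, and the wild-type mice came from the same crosses between heterozygous parents. Every animal was a C57BL/6N male killed at 110 days of age after 6 h without food, and the diets, control (CD) or methionine restriction (MR), had been given since 7 weeks of age. Every diet was offered as a mix of solid and crushed pellets. Cages held animals of one sex and one genotype, so cage and genotype cannot be told apart. The other 6 arrays were wild type on the restricted diet (WT_MR, 3 arrays) and knock-in on the control diet (KI_CD, 3 arrays). RNA from frozen whole liver was hybridised to a 1-colour Affymetrix gene array. The labels do not state that each array is a separate animal, and the p-values below measure the spread between the samples of a group.

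Lmna encodes the A-type lamins, which form the meshwork under the nuclear envelope, and the G609G allele activates a cryptic splice site that gives progerin, a truncated lamin that stays farnesylated. Methionine restriction lowers the supply of a sulfur amino acid that feeds protein synthesis, methylation, cysteine, glutathione and taurine. In liver, a shortage of amino acids activates the kinase GCN2 and the transcription factor ATF4, while pulses of growth hormone acting through STAT5B keep a male pattern of cytochromes P450, steroid enzymes and urinary proteins.

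The 6 arrays differ in genotype and in diet at once, so the comparison alone does not say which of the 2 a gene follows. The other 6 arrays give a second comparison, KI_CD against WT_MR, in which genotype enters with the same sign and diet with the opposite sign. The 2 comparisons share no array, only the estimate of the spread. A gene is called higher or lower below where its adjusted p was under 0.05 (limma fitted to all 12 arrays, Benjamini-Hochberg adjustment over 19938 genes). Values are log2 of the deposited intensity, differences are KI_MR minus WT_CD in log2 with the standard error of the fit, and levels of different genes are not compared. Where the dimmer group's mean lay below the lower quartile of gene levels (5.49 to 5.67 over the arrays), the fold is given as "at least".

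Some arrays stood apart. The array KI_MR replicate 2 had high skeletal muscle markers: the log2 of the summed muscle markers was 13.16 there and 8.80 to 9.83 on the other 11 arrays, with all 5 markers measured and 0 of 5 called by limma (0 at an unadjusted p under 0.05). Without that array 312 genes were higher and 195 lower, and the counts of the gene lists without it are given where they changed. The array WT_CD replicate 3 was high in the acute phase gene Saa1 (11.08, against 5.13 and 5.29 on replicates 1 and 2). KI_MR replicate 3 had the highest level of the bile duct keratin Krt19 (8.69), and its summed cholangiocyte markers stood at 9.58, against 8.52 to 8.71 on the WT_CD arrays. KI_CD replicate 1 had the lowest mean correlation with its group (0.9855, against 0.9887 to 0.9942 on the other 11 arrays). Its summed cholangiocyte markers stood at 9.15, against 8.45 and 8.53 on KI_CD replicates 2 and 3. Without that array 522 genes were higher and 354 lower in KI_MR than in WT_CD. The hepatocyte markers summed to 16.18 to 16.26 on the WT_CD arrays and to 16.23 to 16.27 on the KI_MR arrays, with 0 of 7 called by limma (0 at an unadjusted p under 0.05). The part of other cell types in the results below was not tested, and in whole liver fewer cells of a type and less RNA per cell cannot be told apart.

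Lmna itself was measured at 7.39, 7.34 and 7.39 on the WT_CD arrays and at 8.02, 7.75 and 7.78 on the KI_MR arrays. All 3 KI_MR values were above all 3 WT_CD values, and the difference of 0.48 ± 0.13 did not pass the test (limma, adjusted p = 0.0882). Its group means were 7.55 in WT_MR and 8.0 in KI_CD. The knock-in changes splicing of the transcript, which a gene-level probe set does not report, so this level is no check of the genotype labels. Zmpste24, the protease that trims prelamin A, differed by 0.06 (adjusted p = 0.726).

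In KI_MR, 369 genes were higher than in WT_CD (1.85% of the genes tested) and 226 were lower (1.13%). Of all 19938 genes, 3807 had an unadjusted p under 0.05 (limma), the background for the unadjusted counts of the lists. Without an overlap between the 2 groups of arrays there were 5458 genes (27.4%), and all 595 called genes (2.98%) were among them. The median over all genes was -0.05, with 7473 genes (37.5%) above 0. The changes were mostly small, with a median fold of 1.47 among the higher and 1.57 among the lower genes. A difference of at least 1 in log2 was reached by 71 higher and 63 lower genes, and one of at least 2 by 18 higher and 25 lower genes. In both groups 8 of the called genes were dim. The counts moved by over 1.5 times without any 1 of 5 arrays of the comparison, KI_MR replicate 2 being the exception (above): without KI_MR replicate 3 there were 79 higher and 67 lower genes, without WT_CD replicate 1 there were 87 and 72, without KI_MR replicate 1 there were 145 and 114, without WT_CD replicate 2 there were 148 and 132, and without WT_CD replicate 3 there were 156 and 102. The lower count also moved to 354 without KI_CD replicate 1, an array that enters only through the spread. Of the 595 genes, 122 were called in all 12 fits that left out 1 array each, 66 of them higher and 56 lower. At the edge of the threshold, Cyp8b1 (adjusted p = 0.0495) and Flot1 (0.0499) lay just inside, and Rtn4rl1 (0.0501) and Atf5 (0.0505) just outside.

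**Figure D1:**
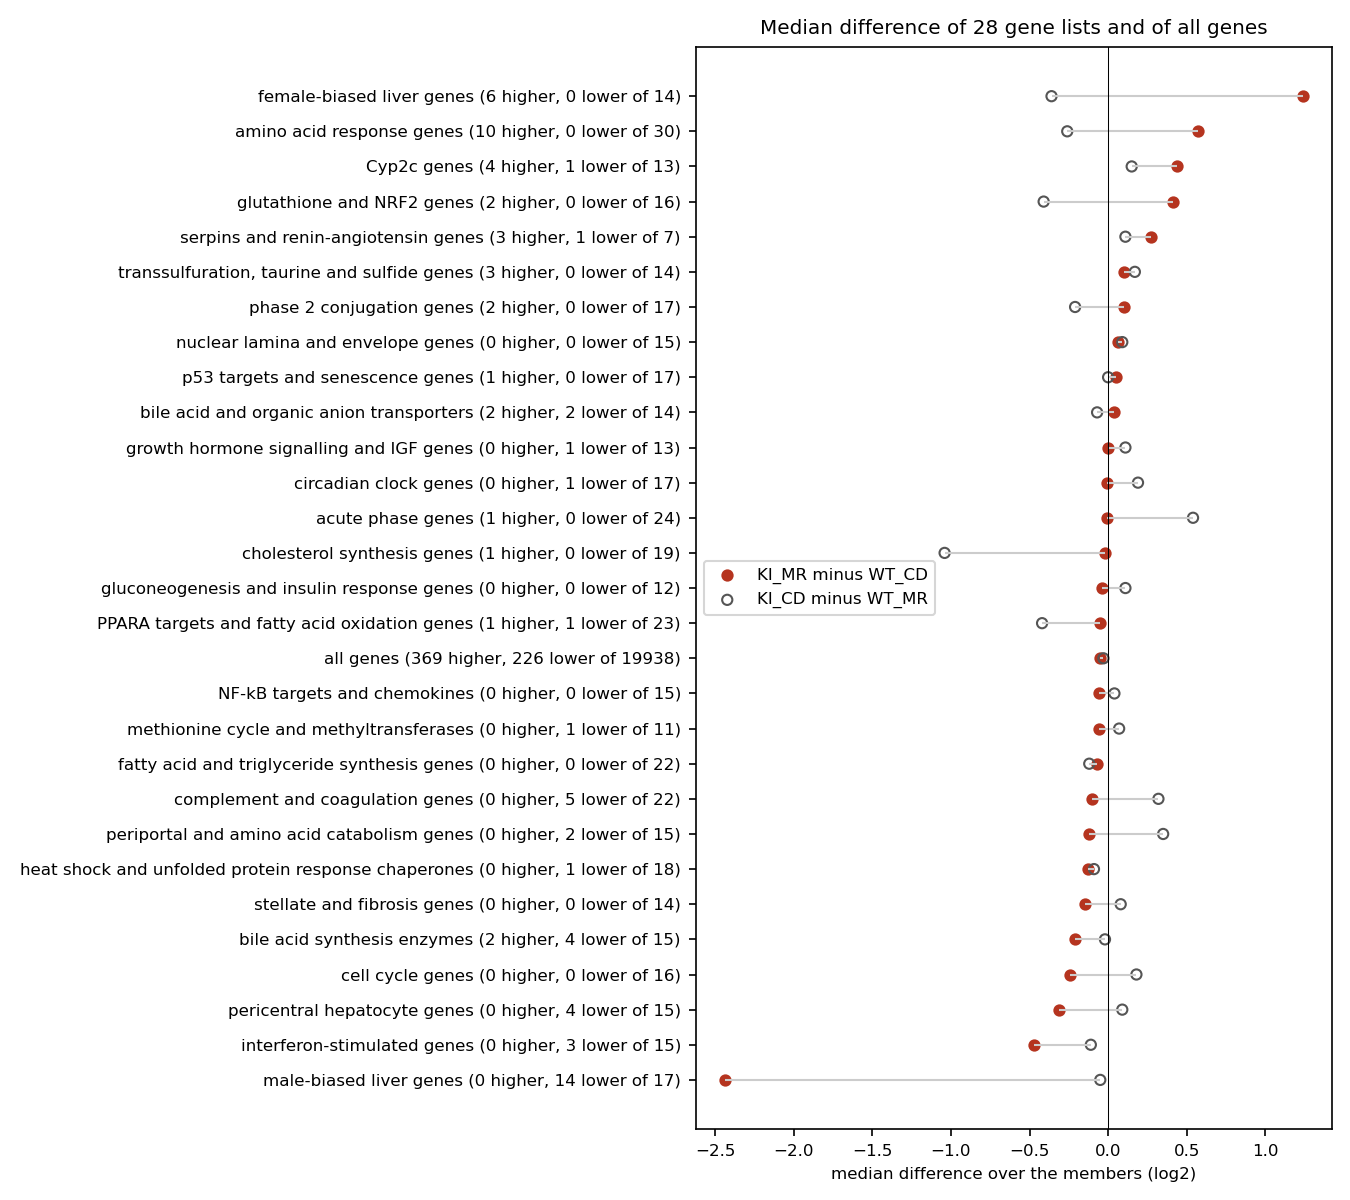
Median log2 difference of each gene list in KI_MR minus WT_CD (filled symbols) and in KI_CD minus WT_MR (open symbols), on the x axis in log2 units, with 1 list per line on the y axis. The male-biased list lies farthest to the left at -2.44 and the female-biased list farthest to the right at 1.24, while most other lists lie near the median of all genes at -0.05.

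On the other 6 arrays, KI_CD against WT_MR, 90 genes were higher (0.451%) and 57 lower (0.286%), 0.737% in all, with 2750 genes (13.8%) without overlap. The median over all genes there was -0.03, with 41.8% above 0. Of the 595 genes called in KI_MR against WT_CD, 324 had the same sign there and 261 the opposite sign. Both comparisons called 14 genes in the same direction (10 higher and 4 lower) and 19 in opposite directions (10 higher and 9 lower in KI_MR). A difference that went with genotype alone would have the same sign in both comparisons, and one that went with diet alone the opposite sign. These numbers moved with single arrays of the second comparison. The opposite count ran from 3 (KI_CD replicate 3 left out) to 69 (KI_CD replicate 1 left out), and the same-direction count was 2 without WT_MR replicate 2 and 47 without WT_MR replicate 3. In fits without another array they lay between these values.

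**Figure D2:**
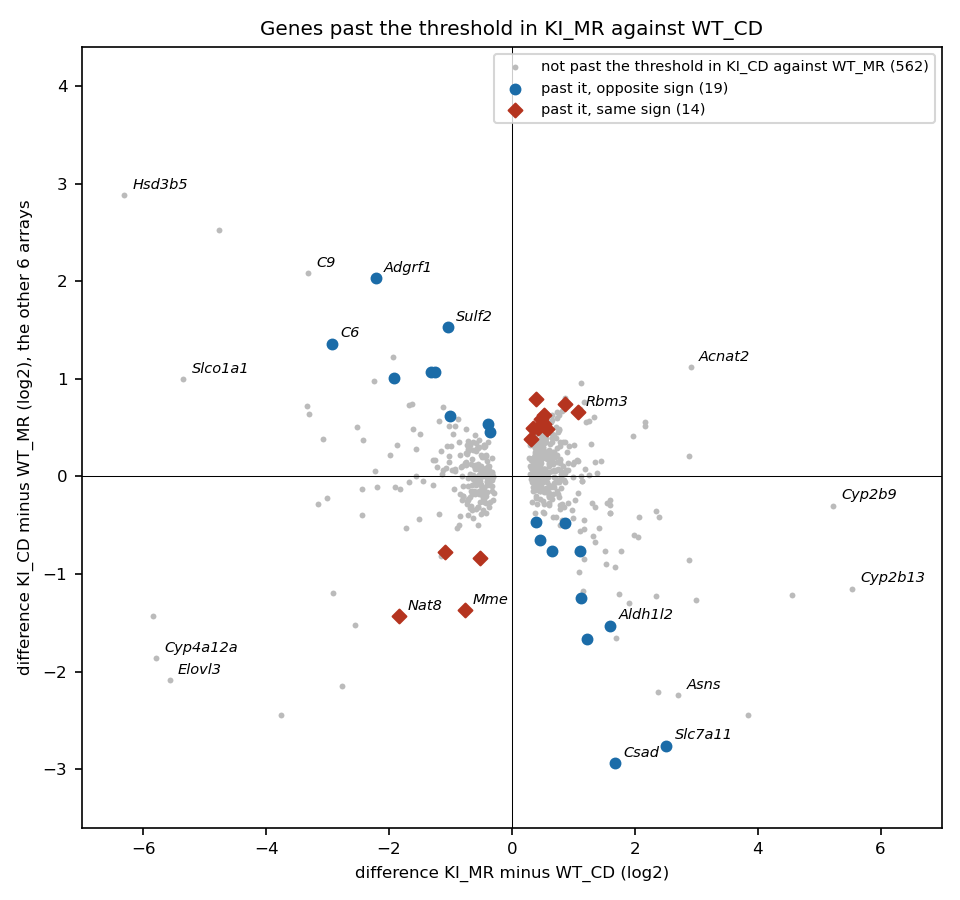
Each point is 1 of the 595 genes called in KI_MR minus WT_CD, with that log2 difference on the x axis and the log2 difference of KI_CD minus WT_MR, on the other 6 arrays, on the y axis. Genes called in both comparisons are coloured by whether the directions are the same (14 genes, such as Nat8 and Rbm3) or opposite (19 genes, such as Csad and Adgrf1), and genes such as Cyp2b9 and Cyp4a12b lie far out on the x axis with y values of -0.30 and -1.43.

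Among the genes with the same direction in both comparisons was Rbm3, a cold-inducible RNA-binding protein. Rbm3 has 3 probe sets, and only the brightest is described here. Its values were 10.51, 10.48 and 10.34 on the WT_CD arrays and 11.59, 11.43 and 11.53 on the KI_MR arrays. The groups were far apart against a narrow spread, and the difference of 1.07 ± 0.08 (2.10-fold, limma, adjusted p = 0.000138) was called in all 12 fits that left out 1 array. KI_CD stood above WT_MR by 0.66 (adjusted p = 0.01), with group means of 11.15 and 10.49. Cirbp, the related cold-inducible protein, was also higher in KI_MR, by 0.87 ± 0.17 (1.83-fold, adjusted p = 0.0242). In KI_CD it was above WT_MR by 0.80 (adjusted p = 0.0666), and its call in KI_MR was lost without any 1 of the WT_CD arrays or without KI_MR replicate 2 or 3 (adjusted p up to 0.095).

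Nat8, an N-acetyltransferase, was at 8.63, 8.43 and 8.67 in WT_CD and at 6.73, 6.95 and 6.55 in KI_MR. Every KI_MR array was below every WT_CD array, by 1.83 ± 0.24 on average (3.55-fold lower, adjusted p = 0.00315). In KI_CD Nat8 was below WT_MR by 1.43 on the log2 scale (adjusted p = 0.026), with means of 7.24 and 8.67, a call lost without WT_MR replicate 2 or KI_CD replicate 2 or 3 (adjusted p up to 0.0982). Aldh1a1, an enzyme that makes retinoic acid, was 2.13-fold lower in KI_MR (-1.09 ± 0.12, adjusted p = 0.00133) and lower in KI_CD than in WT_MR (-0.77, adjusted p = 0.0209), the second lost without WT_MR replicate 1 or 2 or KI_CD replicate 2 or 3 (adjusted p up to 0.09). Hlcs, which attaches biotin to carboxylases, was higher in both comparisons (0.53 and 0.63, adjusted p = 0.0109 and 0.0136). Its call in KI_MR was lost without KI_MR replicate 3 (adjusted p = 0.058), and that in KI_CD without WT_MR replicate 2 or KI_CD replicate 3 (adjusted p up to 0.0676). These genes, and those of the next paragraph, were picked out of the 33 doubly called genes after their values were seen.

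Among the genes with opposite directions was Adgrf1, an adhesion receptor coupled to G proteins. It stood at 8.06, 8.04 and 8.66 in WT_CD and at 5.86, 6.25 and 5.98 in KI_MR. The KI_MR arrays were all lower, with a difference of -2.22 ± 0.18 (4.67-fold, adjusted p = 0.000229). In KI_CD (mean 8.02) it was above WT_MR (mean 5.99) by 2.03 (adjusted p = 0.00116), so that its mean was low on the restricted diet in both genotypes. Sulf2, which trims sulfate from heparan sulfate, was 2.06-fold lower in KI_MR (-1.04 ± 0.20, adjusted p = 0.02) and higher in KI_CD than in WT_MR by 1.53 (adjusted p = 0.0123). Its first call was lost without WT_CD replicate 1 or 2 or KI_MR replicate 1 or 3 (adjusted p up to 0.0958), and its second without WT_MR replicate 2 or KI_CD replicate 3 (adjusted p up to 0.0676). Maoa, a monoamine oxidase, was 1.81-fold higher in KI_MR (0.86 ± 0.08, adjusted p = 0.000596) and lower in KI_CD than in WT_MR (-0.48, adjusted p = 0.0266), the second lost without WT_MR replicate 1 or 2 or KI_CD replicate 3 (adjusted p up to 0.103). Cox6a2, a cytochrome oxidase subunit best known from muscle, was at 7.14, 7.15 and 7.02 in WT_CD and at 8.13, 9.15 and 7.69 in KI_MR, highest on the array with high muscle markers. It was called in 3 of the 12 fits that left out 1 array, those without KI_MR replicate 2 or 3 or KI_CD replicate 1 (adjusted p up to 0.144), and its WT_MR arrays, with no raised muscle markers, stood at 8.52, 8.54 and 8.84.

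Many of the largest differences of the comparison lay in genes with sex-biased expression in mouse liver. Of 17 measured male-biased genes, 14 were lower in KI_MR (82.35%, against 1.13% of all genes) and 0 were higher. All 17 lay below 0, with a median of -2.44 against -0.05 over all genes. In KI_CD against WT_MR the median of the same genes was -0.05, with 1 gene called higher (0.451% of all genes were). Without KI_MR replicate 2 the count was 13, and over the fits without 1 array it ran from 9 (without WT_CD replicate 1 or KI_MR replicate 3) to 16. Of 14 measured female-biased genes, 6 were higher in KI_MR (42.86%, against 1.85% of all genes) and 0 lower, with a median of 1.24 and 13 above 0. In both groups 3 of the 14 were dim. The count was 5 to 7 over the fits without 1 array, and the median in KI_CD against WT_MR was -0.36. Both lists name genes that differ between male and female livers in general, and all samples here were male. Both were chosen with earlier results of these data known, so their counts are a description and no test.

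**Figure D3:**
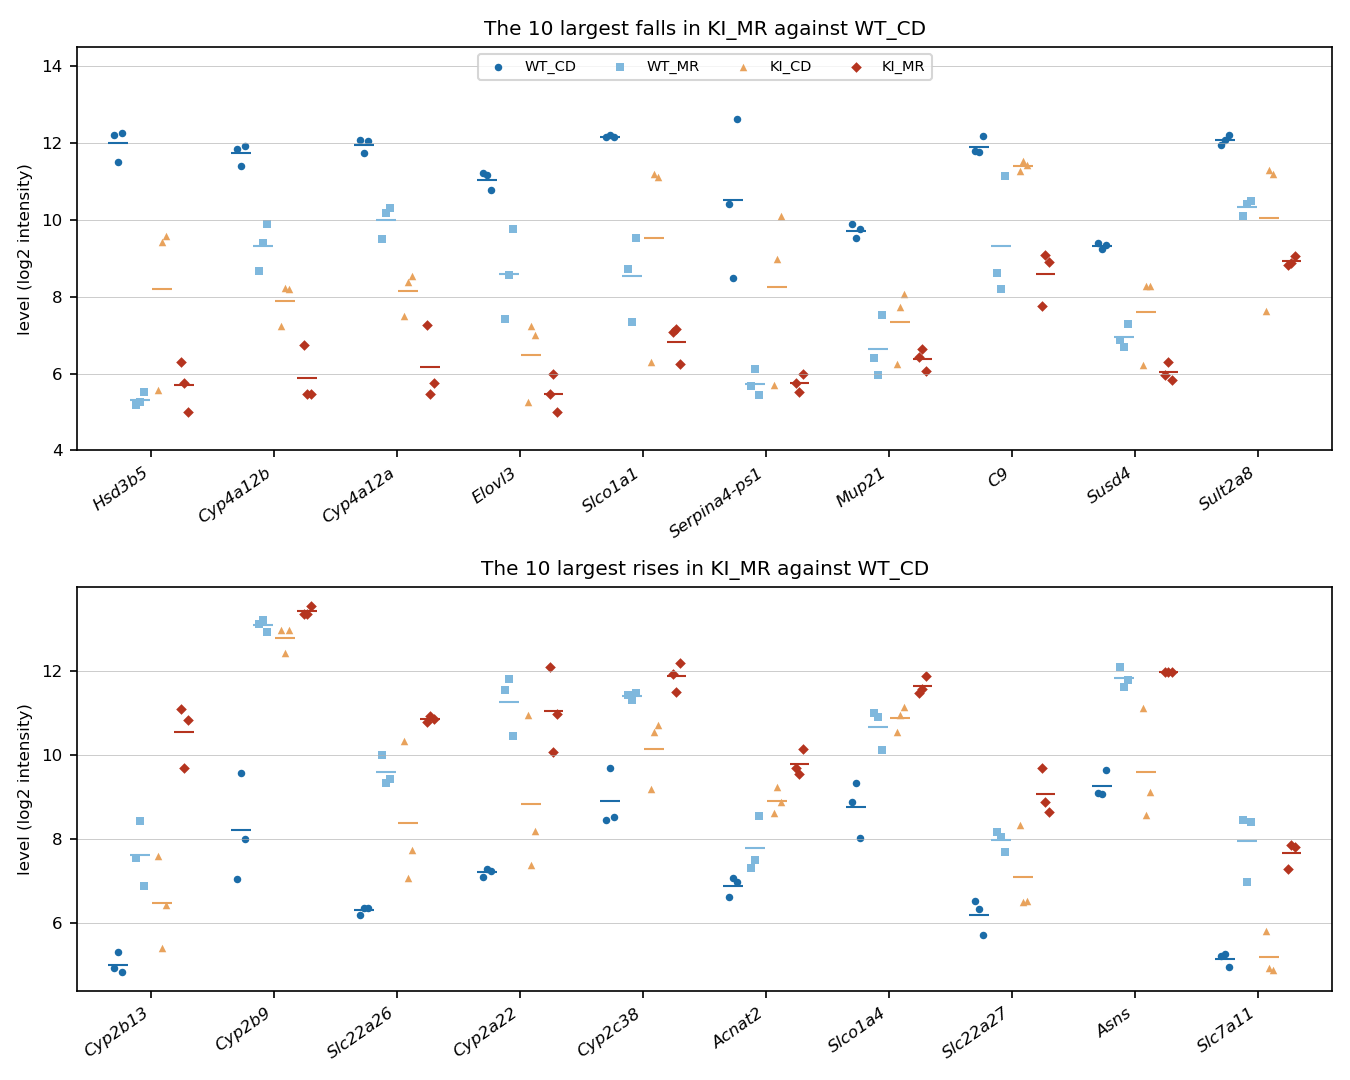
Log2 intensity (y axis) of the 10 genes with the largest falls (upper panel) and the 10 with the largest rises (lower panel) in KI_MR against WT_CD, 1 gene per position on the x axis. Each symbol is 1 array of the 4 groups and each short line a group mean. The WT_CD and KI_MR means are the 2 extremes of the 4 group means for Elovl3 and Slc22a26, whereas for Hsd3b5 the 3 WT_MR arrays lie as low as KI_MR (mean 5.31 against 5.69).

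Hsd3b5, a steroid-metabolising enzyme of male liver, was at 12.22, 11.51 and 12.25 on the WT_CD arrays and at 6.30, 5.75 and 5.0 on the KI_MR arrays. The 2 groups did not come near each other, and Hsd3b5 had the largest fall of any gene that the naming rule allowed (-6.31 ± 0.83, 79.2-fold, adjusted p = 0.00351). Its means were 5.31 in WT_MR and 8.20 in KI_CD, where replicate 1 stood at 5.58 and replicates 2 and 3 at 9.43 and 9.58.

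Cyp4a12a and Cyp4a12b encode the androgen-dependent fatty acid omega-hydroxylases of male mice. Cyp4a12b was at 11.85, 11.40 and 11.93 in WT_CD and at 6.74, 5.46 and 5.46 in KI_MR. Cyp4a12a was at 12.07, 11.73 and 12.05 in WT_CD and at 7.26, 5.46 and 5.75 in KI_MR. In both genes KI_MR replicate 1 was the highest of the KI_MR arrays and still far below WT_CD. The falls were 5.84 ± 0.40 and 5.80 ± 0.42 (57.3-fold and 55.5-fold, adjusted p = 0.000138 for each). Unlike Hsd3b5, both had intermediate means in the other 2 groups, with 9.32 and 10 in WT_MR and 7.89 and 8.14 in KI_CD for Cyp4a12b and Cyp4a12a. The 2 genes are close copies, and whether their probe sets tell them apart was not tested.

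Elovl3, an elongase of very long chain fatty acids, followed the same order of groups. It was at 11.21, 11.17 and 10.79 in WT_CD and at 5.46, 5.98 and 5.0 in KI_MR, with means of 8.59 in WT_MR and 6.49 in KI_CD. KI_MR was dim, and Elovl3 was at least 42.2-fold lower there (-5.57 ± 0.59, adjusted p = 0.00111). Slco1a1, an uptake transporter for organic anions and bile acids, was at 12.15, 12.20 and 12.17 in WT_CD and at 7.08, 7.15 and 6.25 in KI_MR. The WT_CD arrays were close together and KI_MR was 40.7-fold lower (-5.35 ± 1.06, adjusted p = 0.0242). That call was lost without any 1 of the WT_CD arrays or without KI_MR replicate 1 or 3 (adjusted p up to 0.102) and with an intensity trend and robust prior in limma (adjusted p = 0.0659).

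Other male-biased genes fell less, Mup21 and Susd4 among the 10 largest falls and the others below that rank. Mup21, a major urinary protein, was at 9.89, 9.52 and 9.75 in WT_CD and at 6.43, 6.64 and 6.07 in KI_MR (10.1-fold lower, -3.34 ± 0.46, adjusted p = 0.00417). Its mean was low in WT_MR as well (6.63). The Mup genes are close copies, and cross-hybridisation between them was not tested. Susd4, a membrane protein that regulates complement, was 9.83-fold lower (-3.30 ± 0.44, adjusted p = 0.00351). Serpina12, the secreted serpin vaspin, was 5.45-fold lower (-2.44 ± 0.24, adjusted p = 0.000846), and Nudt7, a peroxisomal enzyme that degrades coenzyme A, was 4.70-fold lower (-2.23 ± 0.29, adjusted p = 0.00327). Serpina12 had means of 8.08 in WT_CD, 5.92 in WT_MR, 5.79 in KI_CD and 5.64 in KI_MR. Of the called male-biased genes, Cyp2d9, a steroid hydroxylase, was the least stable: 2.72-fold lower (-1.44 ± 0.34, adjusted p = 0.0484) and called only in the fits without KI_CD replicate 1 or 2 (adjusted p up to 0.142).

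The 10 largest falls also include Serpina4-ps1 and Sult2a8. Serpina4-ps1, annotated as a pseudogene of the serpin family, was at 10.42, 8.49 and 12.62 in WT_CD and at 5.75, 5.52 and 5.98 in KI_MR. The WT_CD arrays were spread widely and the KI_MR arrays were not (27.1-fold lower, -4.76 ± 1.08, adjusted p = 0.0407), with means of 5.74 in WT_MR and 8.26 in KI_CD. Its call was kept only without WT_CD replicate 2 or KI_CD replicate 1 or 3 (adjusted p up to 0.139 in the other fits), and it was lost with the trend and robust prior (adjusted p = 0.0999) or the 6 arrays alone (adjusted p = 0.0541). Sult2a8, a sulfotransferase that acts on bile acids, was at 11.94, 12.08 and 12.20 in WT_CD and at 8.82, 8.89 and 9.06 in KI_MR (8.85-fold lower, -3.15 ± 0.73, adjusted p = 0.0454). The 2 groups of Sult2a8 were tight, but its KI_CD arrays ran from 7.64 to 11.31 and widened the shared spread. The call was lost without any 1 of the WT_CD, WT_MR or KI_MR arrays (adjusted p up to 0.144) and with the intensity trend and robust prior (adjusted p = 0.102). Rarres1, a membrane protein induced by retinoids that ranks below these 10 and was picked after its values were seen, was at 9.21, 8.65 and 9.24 in WT_CD and at 5.81, 6.23 and 6.04 in KI_MR (8.04-fold lower, -3.01 ± 0.32, adjusted p = 0.00133).

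On the female-biased side, Cyp2b13 and Cyp2b9, cytochromes P450 that are abundant in female liver, rose most. Cyp2b13 was at 4.91, 5.29 and 4.81 in WT_CD and at 11.10, 9.68 and 10.84 in KI_MR. WT_CD was dim and KI_MR bright, at least 30.7-fold higher (5.54 ± 0.54, adjusted p = 0.000723). Cyp2b9 was at 7.03, 9.58 and 7.99 in WT_CD and at 13.36, 13.37 and 13.56 in KI_MR. The WT_CD arrays were spread widely and the KI_MR arrays were not, with a difference of 5.23 ± 0.47 (37.4-fold, adjusted p = 0.000503). The other groups differed between these close copies: Cyp2b9 had means of 13.09 in WT_MR and 12.79 in KI_CD, close to KI_MR, whereas Cyp2b13 had means of 7.61 and 6.46, between the extremes.

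Slc22a26, an organic anion transporter, was at 6.19, 6.34 and 6.36 in WT_CD and at 10.78, 10.93 and 10.86 in KI_MR. Both groups were tight, and the difference was 4.56 ± 0.62 (23.6-fold, adjusted p = 0.0037), with means of 9.59 in WT_MR and 8.38 in KI_CD. Its relative Slc22a27 was 7.43-fold higher (2.89 ± 0.45, adjusted p = 0.0085). Fmo2, a flavin monooxygenase, was 5.07-fold higher (2.34 ± 0.36, adjusted p = 0.00762). Cux2, a transcription factor found in female liver that represses male-biased genes, was at 7.19, 7.25 and 7.31 in WT_CD and at 8.90, 8.25 and 8.64 in KI_MR. Its rise of 1.35 ± 0.15 (2.55-fold, adjusted p = 0.00133) placed all 3 KI_MR arrays above the means of WT_MR (7.71) and KI_CD (7.4).

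Of 13 measured growth hormone and IGF genes, 1 was lower and 0 were higher (7.69%, against 2.98% of all genes), with a median of 0.00, and 2 were lower without WT_MR replicate 2. The lower one was Ghr, the growth hormone receptor, at 12.41, 12.38 and 12.41 in WT_CD and at 11.44, 11.77 and 11.54 in KI_MR. The difference of -0.82 ± 0.16 (1.76-fold, adjusted p = 0.0244) exceeded the spread, but the call was lost without any 1 of the WT_CD arrays or without KI_MR replicate 1 or 3 (adjusted p up to 0.10). Bcl6, a repressor that is high in male liver, was at 9.66, 9.57 and 8.10 in WT_CD and at 6.98, 7.69 and 7.12 in KI_MR. The groups did not overlap, and the difference of -1.85 ± 0.62 did not pass the test (adjusted p = 0.148). Igf1, the main growth factor released by liver, differed by -0.19 ± 0.10 (adjusted p = 0.301), and Igfbp1, an IGF-binding protein that rises on fasting, by 1.20 ± 0.52 (adjusted p = 0.246).

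The list of the amino acid response holds genes that cells raise when amino acids run short. Of 30 measured members, 10 (33.33%, against 1.85% of all genes) were higher in KI_MR than in WT_CD and 0 were lower. Of the 30, 26 lay above 0 (37.5% of all genes did), with a median of 0.57 against -0.05 over all genes. On the other 6 arrays 4 of the 30 members were lower in KI_CD than in WT_MR, against 0.286% of all genes. The median over all 30 there was -0.26. The count of 10 was the same without KI_MR replicate 2. It was 5 at its lowest (without WT_CD replicate 1 or 2, or KI_MR replicate 1 or 3, in turn) and 15 at its highest.

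ATF4 acts at a composite element shared with C/EBP proteins, written here as TGATGNAA on either strand (TTNCATCA on the other). Of the 10 called genes, 8 have a promoter in the RefSeq table used (build GRCm38.p6), and Aldh1l2 and Slc7a5 were not matched. Within 250 bases upstream of the gene start, 3 of their 10 promoter windows held the element (30.0%), against 7 of 30 windows of all measured list members (23.33%) and 1134 of 32851 of all promoters (3.45%). The 3 windows belong to Asns, Slc7a11 and Vldlr, and the first and second are shown because the 2 genes rose most in the list. Psat1 and Vldlr each enter with a second window, and only 1 of the Vldlr windows held the element. The list was chosen as genes of this response, so these shares are a description and no test of ATF4. The Asns window is chr6:7693210-7693459 on the minus strand, with the element starting at base -23 from the gene start. The Slc7a11 window is chr3:50443614-50443863 on the minus strand, with an element on each strand at bases -66 and -47. The capitals mark the elements, both windows read 5′ to 3′ along the gene, and a match is a description of these letters, not a measured binding site.
Asns: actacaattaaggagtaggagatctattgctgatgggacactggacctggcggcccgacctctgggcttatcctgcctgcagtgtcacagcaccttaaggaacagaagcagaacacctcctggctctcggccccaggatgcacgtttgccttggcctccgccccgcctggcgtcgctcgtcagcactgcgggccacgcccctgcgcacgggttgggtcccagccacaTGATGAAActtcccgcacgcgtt
Slc7a11: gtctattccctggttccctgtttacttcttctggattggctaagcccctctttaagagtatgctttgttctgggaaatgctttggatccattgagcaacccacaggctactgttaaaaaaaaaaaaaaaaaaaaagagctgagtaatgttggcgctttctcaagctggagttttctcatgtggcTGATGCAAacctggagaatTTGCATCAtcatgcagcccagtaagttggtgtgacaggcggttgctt

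Asns, asparagine synthetase, was at 9.10, 9.08 and 9.63 on the WT_CD arrays and at 11.97, 11.99 and 11.98 on the KI_MR arrays. The KI_MR arrays were nearly equal and all above WT_CD, with a difference of 2.71 ± 0.48 (6.55-fold, adjusted p = 0.0155). Its mean was 11.84 in WT_MR, close to KI_MR, and 9.60 in KI_CD, close to WT_CD. KI_CD against WT_MR gave -2.24 (adjusted p = 0.0666), and within KI_CD replicate 1 stood at 11.11 and replicates 2 and 3 at 8.57 and 9.11. The Asns call was lost without WT_CD replicate 1 or 2 or KI_MR replicate 1 or 3 (adjusted p up to 0.0747).

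Amino acid transporters were among the genes that rose. Slc7a11, the cystine and glutamate exchanger, was at 5.21, 5.25 and 4.95 in WT_CD and at 7.29, 7.85 and 7.81 in KI_MR. WT_CD was dim, and Slc7a11 was at least 4.13-fold higher in KI_MR (2.51 ± 0.37, adjusted p = 0.00665), a call kept in all 12 fits without 1 array. In KI_CD (mean 5.19) it was lower than in WT_MR (mean 7.95) (-2.76 ± 0.37, adjusted p = 0.0135), which was not called without WT_MR replicate 1 or KI_CD replicate 3 (adjusted p = 0.0551 and 0.0509). Slc3a2, the heavy chain that pairs with Slc7a11 and Slc7a5, was 2.65-fold higher (1.41 ± 0.19, adjusted p = 0.00351). Slc7a5, the large neutral amino acid transporter, was 2.25-fold higher (1.17 ± 0.20, adjusted p = 0.0129), lost without WT_CD replicate 1 or KI_MR replicate 3 (adjusted p up to 0.0626).

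The called members of the list also included Aldh1l2, Psat1, Mthfd2 and Phgdh. Aldh1l2, the mitochondrial formyltetrahydrofolate dehydrogenase, was at 5.93, 5.81 and 5.67 in WT_CD and at 7.86, 7.13 and 7.23 in KI_MR. The groups did not overlap and the difference of 1.60 ± 0.17 (3.04-fold, adjusted p = 0.00111) was called in all 12 fits without 1 array. On the other 6 arrays Aldh1l2 was lower in KI_CD (mean 5.81) than in WT_MR (mean 7.34), by -1.53 (adjusted p = 0.00578). Psat1, an enzyme of serine synthesis, was 5.18-fold higher (2.37 ± 0.45, adjusted p = 0.0209), and Mthfd2, a mitochondrial folate enzyme, was 3.22-fold higher (1.69 ± 0.37, adjusted p = 0.0358). Phgdh, which starts serine synthesis, was 2.22-fold higher (1.15 ± 0.27, adjusted p = 0.0471). The calls of Psat1 and Mthfd2 were lost without any 1 of the WT_CD arrays or without KI_MR replicate 1 or 3 (adjusted p up to 0.089 and 0.121). Phgdh was called only without KI_CD replicate 1 or KI_MR replicate 3 (adjusted p up to 0.139 in the other fits).

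Vldlr, a lipoprotein receptor, was at 6.27, 6.69 and 6.49 in WT_CD and at 9.32, 8.78 and 8.41 in KI_MR (5.11-fold higher, 2.35 ± 0.28, adjusted p = 0.00217). All 3 KI_MR arrays were well above WT_CD, and the call held in all 12 fits without 1 array. Adm2, a peptide hormone of the calcitonin family, was 1.57-fold higher (0.65 ± 0.12, adjusted p = 0.0155) and lower in KI_CD than in WT_MR (-0.76, adjusted p = 0.0193). Its first call was lost without WT_CD replicate 2 or 3 or KI_MR replicate 1 or 3 (adjusted p up to 0.0723), and its second without WT_MR replicate 2 or KI_CD replicate 3 (adjusted p up to 0.09). Members that did not pass included Atf5 (0.69, adjusted p = 0.0505), Sesn2 (0.66, adjusted p = 0.082) and Chac1 (0.82, adjusted p = 0.208). Fgf21, a hormone released by liver under amino acid shortage, was at 6.48, 6.32 and 6.48 in WT_CD and at 6.87, 6.44 and 6.11 in KI_MR. The groups overlapped (0.05 ± 0.43, adjusted p = 0.964), while the mean in WT_MR was 8.13 and that in KI_CD 6.79.

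**Figure D4:**
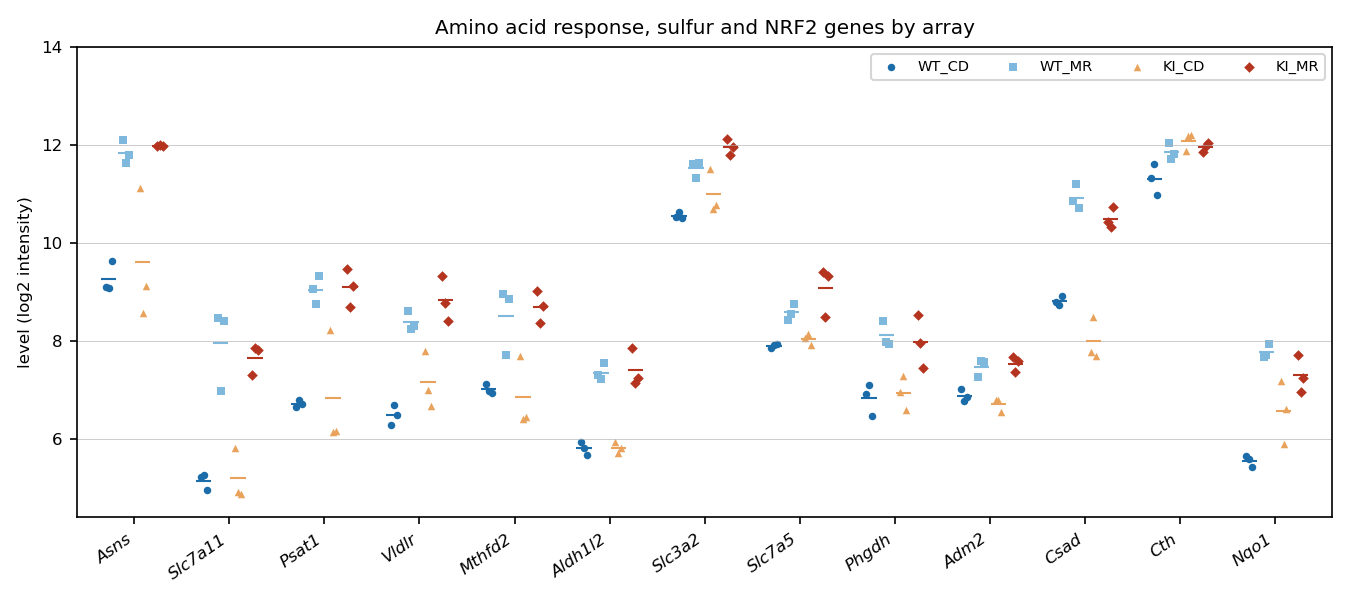
Log2 intensity (y axis) of amino acid response and sulfur amino acid genes, 1 gene per position on the x axis, each symbol 1 array of the 4 groups and each short line a group mean. For Asns, Slc7a11, Aldh1l2 and Csad the KI_MR and WT_MR arrays lie high and WT_CD low, and for Csad the KI_CD mean (7.99) lies below that of WT_CD (8.81).

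Few genes of the pathways that use methionine were called. Those of transsulfuration, taurine synthesis and taurine transport were higher, and a methyltransferase, Gamt, was lower. Of 14 measured transsulfuration, taurine and sulfide genes, 3 were higher and 0 lower (21.43%, against 2.98% of all genes), with a median of 0.10. Csad, cysteine sulfinate decarboxylase of taurine synthesis, was at 8.80, 8.73 and 8.91 in WT_CD and at 10.43, 10.32 and 10.73 in KI_MR. The groups were far apart (1.68 ± 0.20, 3.20-fold, adjusted p = 0.00217), and the call held in all 12 fits without 1 array. On the other 6 arrays Csad was lower in KI_CD than in WT_MR by -2.94 ± 0.20 (adjusted p = 0.00023), with means of 7.99 and 10.92.

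Slc6a6, the taurine transporter, was at 10.10, 10.36 and 9.95 in WT_CD and at 10.59, 10.72 and 10.94 in KI_MR (1.53-fold higher, 0.61 ± 0.12, adjusted p = 0.0242). The groups did not overlap, but the call was lost without WT_CD replicate 1 or 3 or KI_MR replicate 3 (adjusted p up to 0.103). Cth, which makes cysteine from cystathionine, was 1.57-fold higher (0.65 ± 0.15, adjusted p = 0.0461), a call kept only without WT_CD replicate 2 or KI_CD replicate 1 (adjusted p up to 0.171). The list had 2 higher members without KI_MR replicate 2 and 1 with the 6 arrays fitted alone. Cbs, the first enzyme of transsulfuration, differed by 0.21 (adjusted p = 0.351).

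Of 11 measured genes of the methionine cycle and its methyltransferases, 1 was lower and 0 were higher (9.09%, against 2.98% of all genes), with a median of -0.06. There were 2 lower without KI_MR replicate 2 or with dim genes left out. Gamt, the last enzyme of creatine synthesis, was at 12.55, 12.41 and 12.16 in WT_CD and at 11.85, 11.90 and 11.62 in KI_MR (1.5-fold lower, -0.59 ± 0.12, adjusted p = 0.0245). Its call was lost without WT_CD replicate 1 or 2 or KI_MR replicate 1 or 3 (adjusted p up to 0.109), after quantile normalization and with the 6 arrays alone. Bhmt, which remethylates homocysteine with betaine, was at 12.82, 12.94 and 12.26 in WT_CD and at 10.66, 12.29 and 11.32 in KI_MR. The groups overlapped at KI_MR replicate 2, and the difference of -1.25 ± 0.33 did not pass (adjusted p = 0.0672), with -1.32 and -0.75 for its other 2 probe sets. Mat1a, the liver enzyme that makes S-adenosylmethionine, differed by 0.21 ± 0.07 (adjusted p = 0.157).

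Of 16 measured glutathione and NRF2 genes, 2 were higher and 0 lower (12.5%, against 2.98% of all genes). Of the 16, 14 lay above 0 (37.5% of all genes did), with a median of 0.41. Nqo1, a quinone reductase and common readout of NRF2, was at 5.64, 5.58 and 5.43 in WT_CD and at 7.71, 6.95 and 7.24 in KI_MR. WT_CD was dim and KI_MR at least 3.24-fold higher (1.75 ± 0.27, adjusted p = 0.00872). Gsr, glutathione reductase, was 1.33-fold higher (0.41 ± 0.09, adjusted p = 0.0357) and called in 5 of the 12 fits without 1 array (adjusted p up to 0.125). It was lost without any 1 of the WT_CD arrays, KI_CD replicate 2 or 3, or KI_MR replicate 1 or 3. In KI_CD against WT_MR, 3 members were lower (0.286% of all genes were) and the median was -0.41, against -0.03 over all genes.

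Members of the bile acid enzyme list moved in both directions. Of 15 measured members, 2 were higher and 4 lower (40.0% called, against 2.98% of all genes), 12 did not overlap between the groups (80.0%, against 27.4% of all genes), and the median was -0.21. The 4 lower members became 3 without KI_MR replicate 2, 1 without WT_CD replicate 1 or 2 or KI_MR replicate 1 or 3, 2 without WT_CD replicate 3, WT_MR replicate 1 or KI_CD replicate 2 or 3, 1 after median centring and 2 after quantile normalization or with the 6 arrays alone. Acnat2, 1 of the 2 higher members, is a peroxisomal enzyme that conjugates fatty acids, not bile acids, with taurine. It was at 6.61, 7.07 and 6.97 in WT_CD and at 9.68, 9.54 and 10.15 in KI_MR. All KI_MR arrays were above all WT_CD arrays (2.91 ± 0.29, 7.50-fold, adjusted p = 0.000872), with means of 8.91 in KI_CD and 7.79 in WT_MR. Acox2, the peroxisomal oxidase of the bile acid side chain, was 1.52-fold higher (0.60 ± 0.12, adjusted p = 0.026), lost without WT_CD replicate 2 or 3 or KI_MR replicate 1 or 3 (adjusted p up to 0.105).

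Scp2, the sterol carrier and peroxisomal thiolase, was at 12.37, 12.29 and 12.64 in WT_CD and at 11.21, 11.49 and 11.62 in KI_MR (1.99-fold lower, -0.99 ± 0.12, adjusted p = 0.00276). Its fall held in all 12 fits without 1 array. Cyp8b1, the sterol 12-alpha-hydroxylase that directs synthesis to cholic acid, was at 10.74, 10.68 and 9.24 in WT_CD and at 6.32, 9.19 and 7.52 in KI_MR. The groups nearly touched, with a difference of -2.55 ± 0.61 (5.85-fold, adjusted p = 0.0495), and the call was kept only without WT_CD replicate 3, KI_CD replicate 1 or KI_MR replicate 2 (adjusted p up to 0.194 in the other fits). Hsd3b7 and Akr1c6, which act on the sterol ring, were 1.66-fold and 1.33-fold lower (-0.74 ± 0.16 and -0.41 ± 0.09, adjusted p = 0.0358 for each), and each kept its call in 5 of the 12 fits (adjusted p up to 0.154 and 0.149). Cyp7b1, the oxysterol hydroxylase counted above among the male-biased genes, was 5.43-fold lower (-2.44 ± 0.53, adjusted p = 0.0348) and called in 6 of the 12 fits (adjusted p up to 0.135). The call was lost for Hsd3b7 without any 1 of the WT_CD arrays, KI_CD replicate 2 or 3, or KI_MR replicate 1 or 3. It was lost for Akr1c6 without any 1 of the WT_CD or KI_MR arrays or without WT_MR replicate 1, and for Cyp7b1 without WT_CD replicate 1 or 3, WT_MR replicate 1 or any 1 of the KI_MR arrays. Cyp7a1, which sets the rate of bile acid synthesis, was at 10.83, 11.02 and 11.12 in WT_CD and at 10.22, 9.35 and 10.77 in KI_MR, a difference of -0.88 ± 0.32 that did not pass (adjusted p = 0.177). Cyp27a1 differed by -0.21 (adjusted p = 0.423).

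Of 14 measured bile acid and organic anion transporters, 2 were higher and 2 lower (28.57%, against 2.98% of all genes), with a median of 0.04. Slco1a4, an uptake transporter, was at 8.88, 9.34 and 8.02 in WT_CD and at 11.48, 11.57 and 11.88 in KI_MR (7.43-fold higher, 2.89 ± 0.32, adjusted p = 0.00133). KI_MR was higher on every array, opposite to its relative Slco1a1 above, and both WT_MR (10.67) and KI_CD (10.88) also had high means. Slc22a7, an organic anion transporter, was at 9.69, 8.92 and 9.89 in WT_CD and at 7.03, 7.15 and 6.77 in KI_MR (5.72-fold lower, -2.52 ± 0.31, adjusted p = 0.00269). Slc51b, a subunit of the basolateral bile acid exporter, was 2.93-fold higher (1.55 ± 0.34, adjusted p = 0.0344), with KI_MR replicate 2 at 6.89 and replicates 1 and 3 at 8.24 and 8.17, and its call was lost without any 1 of the WT_CD arrays, WT_MR replicate 1, or KI_MR replicate 1 or 3 (adjusted p up to 0.142). The transporters Abcb11 and Slc10a1 differed by 0.47 (adjusted p = 0.125) and 0.06 (adjusted p = 0.745).

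Among drug-metabolising enzymes, 4 of 13 measured Cyp2c genes were higher and 1 was lower (38.46%, against 2.98% of all genes), with a median of 0.44. In both groups 2 of the 13 were dim. Cyp2c39 was at 6.82, 7.13 and 6.75 in WT_CD and at 9.31, 8.99 and 9.58 in KI_MR (5.25-fold higher, 2.39 ± 0.18, adjusted p = 0.000138). The rises of Cyp2c38 (2.99 ± 0.40, 7.96-fold, adjusted p = 0.00368) and Cyp2c37 (1.28 ± 0.20, 2.43-fold, adjusted p = 0.0085) and the fall of Cyp2c23 (-0.83 ± 0.11, 1.78-fold, adjusted p = 0.00434) were called in all 12 fits without 1 array, as was Cyp2c66 (0.44 ± 0.07, adjusted p = 0.00724). The Cyp2c genes are close copies, and cross-hybridisation between them was not tested. Outside that family, Cyp2a22 was at 7.10, 7.29 and 7.23 in WT_CD and at 12.10, 10.08 and 10.97 in KI_MR (14.4-fold higher, 3.84 ± 0.78, adjusted p = 0.0268). Its call was lost without any 1 of the WT_CD arrays or without KI_MR replicate 1 or 3 (adjusted p up to 0.108) and with the intensity trend and robust prior (adjusted p = 0.0695). Of 17 measured conjugation genes, 2 were higher and 0 lower (11.76%, against 2.98% of all genes). There were 3 lower without KI_CD replicate 1, 1 without KI_CD replicate 3 and 2 with the 6 arrays alone. With the replicate block 4 were higher. The 2 higher genes were Mgst3, a microsomal glutathione transferase (1.60 ± 0.22, 3.02-fold, adjusted p = 0.00418), and Gstt3 (1.33 ± 0.27, 2.51-fold, adjusted p = 0.0261). The call of Gstt3 was lost without WT_CD replicate 1 or 3 or KI_MR replicate 2 or 3 (adjusted p up to 0.114).

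Sterol and fat metabolism were covered by 3 lists. Of 19 measured cholesterol synthesis genes, 1 was higher and 0 were lower (5.26%, against 2.98% of all genes), with a median of -0.02. On the other 6 arrays the same genes had a median of -1.04, against -0.03 over all genes. There 8 were lower in KI_CD than in WT_MR (0.286% of all genes were), and 18 of 19 lay below 0 (41.8% of all genes lay above 0). The one higher member was Srebf2, the transcription factor of the pathway, at 8.48, 8.79 and 8.51 in WT_CD and at 9.16, 9.13 and 9.08 in KI_MR (1.44-fold, 0.53 ± 0.11, adjusted p = 0.0271). The KI_MR arrays were tight, and the call was lost without WT_CD replicate 1 or 3 or any 1 of the KI_MR arrays (adjusted p up to 0.124) and after quantile normalization. Without KI_MR replicate 2 the list had 0 higher and 2 lower members, and 1 was lower without WT_MR replicate 3 or KI_CD replicate 1 or 3. Of 22 measured genes of fatty acid and triglyceride synthesis, 0 were called by limma (4 at an unadjusted p under 0.05), and the median was -0.07, with 1 lower without KI_CD replicate 1 or 2 or with the 6 arrays alone. The smallest p in that list was that of Fads2, a desaturase (-0.59 ± 0.16, adjusted p = 0.0774). Of 12 measured gluconeogenesis and insulin response genes, 0 were called (3 at an unadjusted p under 0.05), with a median of -0.04 and 1 lower with the 6 arrays alone.

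Of 23 measured PPARA targets and oxidation genes, 1 was higher and 1 lower (8.7%, against 2.98% of all genes), with a median of -0.05. Cyp4a14, a fatty acid omega-hydroxylase, was at 10.69, 10.46 and 11.61 in WT_CD and at 12.93, 12.92 and 13.12 in KI_MR (4.19-fold higher, 2.07 ± 0.26, adjusted p = 0.00269). Its means in WT_MR (12.98) and KI_CD (12.55) were near that of KI_MR. Ppara itself, the nuclear receptor of fasting, was at 11.62, 11.47 and 11.45 in WT_CD and at 10.96, 10.91 and 10.73 in KI_MR (1.57-fold lower, -0.65 ± 0.11, adjusted p = 0.0122). The call of Ppara was lost without WT_CD replicate 1 or KI_MR replicate 3 (adjusted p up to 0.0643). The list had 2 lower members without KI_MR replicate 2, WT_MR replicate 2 or 3 or KI_CD replicate 2, and 3 without KI_CD replicate 1, where 2 were higher.

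Several terminal complement genes were lower in KI_MR. Of 22 measured complement and coagulation genes, 5 were lower and 0 higher (22.73%, against 2.98% of all genes), with a median of -0.10. On the other 6 arrays all 22 were above 0 in KI_CD minus WT_MR (41.8% of all genes were), with a median of 0.32. There 2 were called higher, against 0.451% of all genes. The 5 lower genes were C6, C8a, C8b and C9, which build the membrane attack complex, and F11, coagulation factor XI. Hc, which encodes C5 and starts that complex, differed by -0.11 (adjusted p = 0.725). Over the fits without 1 array the count was 3 (without WT_CD replicate 3, or KI_MR replicate 1 or 3) to 6, and it was 5 without KI_MR replicate 2.

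**Figure D5:**
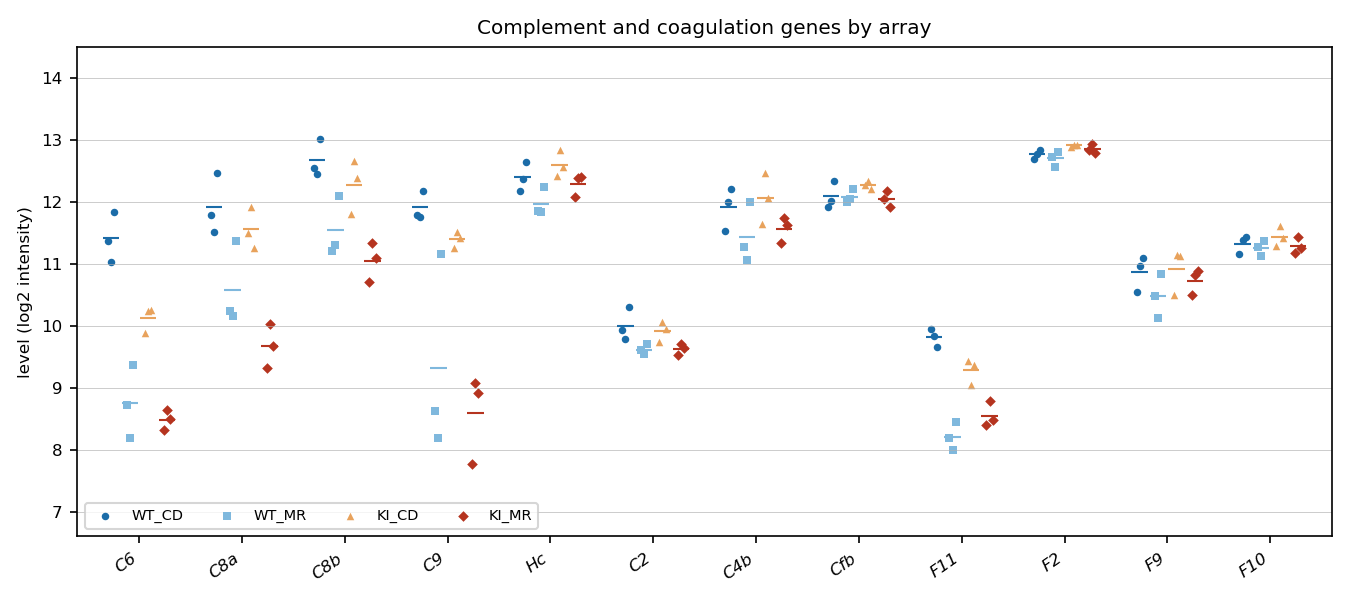
Log2 intensity (y axis) of complement and coagulation genes, 1 gene per position on the x axis, each symbol 1 array of the 4 groups and each short line a group mean. For C6, C8a, C8b, C9 and F11 the WT_CD arrays lie highest and the KI_MR arrays low, with the WT_MR means below those of KI_CD.

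C9, the pore-forming subunit, was at 11.79, 11.76 and 12.18 in WT_CD and at 7.77, 9.08 and 8.91 in KI_MR. Every KI_MR array was lower, by 3.32 ± 0.61 on average (10-fold, adjusted p = 0.0184). Its mean was 9.32 in WT_MR, where replicate 3 stood at 11.15 and the other replicates at 8.63 and 8.19, and 11.40 in KI_CD. The call of C9 was lost without any 1 of the WT_CD arrays or without KI_MR replicate 1 or 3 (adjusted p up to 0.0719).

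C6, which is also on the male-biased list, was at 11.36, 11.03 and 11.84 in WT_CD and at 8.31, 8.64 and 8.49 in KI_MR (7.62-fold lower, -2.93 ± 0.27, adjusted p = 0.000503). In KI_CD (mean 10.12) it was above WT_MR (mean 8.76) by 1.36 (adjusted p = 0.0485), a call kept only without WT_CD replicate 3, WT_MR replicate 3 or KI_CD replicate 1 (adjusted p up to 0.165 in the other fits). C8a was at 11.79, 11.51 and 12.47 in WT_CD and at 9.32, 10.03 and 9.68 in KI_MR (4.73-fold lower, -2.24 ± 0.34, adjusted p = 0.00724). C8b was 3.07-fold lower (-1.62 ± 0.28, adjusted p = 0.0132), lost without WT_CD replicate 3 or KI_MR replicate 1 or 3 (adjusted p up to 0.0567). F11 was at 9.95, 9.84 and 9.65 in WT_CD and at 8.39, 8.78 and 8.48 in KI_MR (2.40-fold lower, -1.26 ± 0.15, adjusted p = 0.002). In KI_CD F11 was above WT_MR by 1.07 (adjusted p = 0.0136), a call lost without WT_MR replicate 1 or 2 or KI_CD replicate 3 (adjusted p up to 0.0714). C6, C8a and F11 kept their calls in KI_MR in all 12 fits.

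Of 24 measured acute phase genes, 1 was higher and 0 lower (4.17%, against 2.98% of all genes), with a median of -0.01. There were 3 higher without WT_CD replicate 3 and 0 without KI_MR replicate 2. The higher one was Apcs, serum amyloid P, at 10.10, 10.22 and 11.21 in WT_CD and at 12.28, 12.24 and 11.79 in KI_MR (3.02-fold, 1.60 ± 0.35, adjusted p = 0.0354). Its call was lost without WT_CD replicate 1 or 2, WT_MR replicate 1 or any 1 of the KI_MR arrays (adjusted p up to 0.154), with the trend and robust prior and with the 6 arrays alone. Orm2, an acid glycoprotein, was at 9.83, 9.80 and 12.38 in WT_CD and at 7.37, 9.44 and 9.12 in KI_MR. The groups did not overlap, WT_CD replicate 3 stood apart here as it did for Saa1, and the difference of -2.03 ± 0.91 did not pass (adjusted p = 0.257).

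Of 15 measured interferon-stimulated genes, 3 were lower and 0 higher (20.0%, against 2.98% of all genes). Of the 15, 12 lay below 0, with a median of -0.47, and over all genes 37.5% lay above 0. The lower ones were Oasl1, Oas2 and Bst2, all antiviral effectors. Oasl1 was at 8.69, 8.35 and 8.60 in WT_CD and at 7.75, 8.08 and 7.78 in KI_MR (1.60-fold lower, -0.68 ± 0.14, adjusted p = 0.0254), Oas2 was 1.39-fold lower (-0.47 ± 0.10, adjusted p = 0.0312), and Bst2 was 1.53-fold lower (-0.62 ± 0.15, adjusted p = 0.0479). Oasl1 was not called without WT_CD replicate 1 or 3 or KI_MR replicate 1 or 3, and Oas2 not without any 1 of the WT_CD or KI_MR arrays (adjusted p up to 0.117 and 0.124). Bst2 was called only without WT_MR replicate 2 or 3 or KI_CD replicate 1 (adjusted p up to 0.194 in the other fits). The count of the list was 0 without WT_CD replicate 1 or 3 or KI_MR replicate 1 or 3, 1 without WT_CD replicate 2, 7 without WT_MR replicate 3, 5 without KI_CD replicate 1, 2 without KI_MR replicate 2, 0 after median centring and 5 after quantile normalization. The Kupffer cell and macrophage markers had the same sign: 11 of 11 lay below 0, with a median of -0.34 and 0 called by limma (2 at an unadjusted p under 0.05), and their summed level was 13.15 to 13.44 in WT_CD and 12.87 to 13.08 in KI_MR. Their part in the interferon genes was not tested. Of 15 measured NF-kB targets and chemokines, 0 were called (2 at an unadjusted p under 0.05), with a median of -0.06.

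Secreted serpins and angiotensin genes included 3 higher and 1 lower of 7 measured (57.14%, against 2.98% of all genes), with a median of 0.27. Serpina7, the thyroxine-binding globulin, was at 9.38, 8.73 and 9.12 in WT_CD and at 11.37, 11.29 and 11.07 in KI_MR (4.49-fold higher, 2.17 ± 0.24, adjusted p = 0.00133). It was high in all the other groups as well, with means of 11.05 in WT_MR and 11.61 in KI_CD. Agt, the angiotensin precursor, and Agtr1a, its main receptor, were 1.40-fold and 1.31-fold higher (0.49 ± 0.09 and 0.40 ± 0.08, adjusted p = 0.0218 and 0.0223). Agt was not called without WT_CD replicate 1 or 2 or KI_MR replicate 2 or 3, and Agtr1a not without WT_CD replicate 1 or 3 or KI_MR replicate 2 or 3 (adjusted p up to 0.0996 and 0.103), so that the list had 1 higher member without KI_MR replicate 2 and 1 with the 6 arrays alone.

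Genes that mark the zones of the liver lobule fell in part. Of 15 measured pericentral genes, 4 were lower and 0 higher (26.67%, against 2.98% of all genes), with a median of -0.31. Over the fits without 1 array 1 (without any 1 of the WT_CD arrays or KI_MR replicate 3), 2 (without KI_MR replicate 1) and up to 6 were lower. Rhbg, an ammonium transporter, was at 8.61, 8.10 and 8.11 in WT_CD and at 6.78, 7.06 and 6.46 in KI_MR (2.85-fold lower, -1.51 ± 0.23, adjusted p = 0.00815), with WT_MR (8.18) and KI_CD (7.74) nearer to WT_CD. Gulo, the last enzyme of vitamin C synthesis, was 1.82-fold lower (-0.86 ± 0.15, adjusted p = 0.0144). Slc1a2, a glutamate transporter, and Lect2, a secreted hepatokine, were 1.56-fold and 1.65-fold lower (-0.64 ± 0.13 and -0.73 ± 0.17, adjusted p = 0.0254 and 0.048). Without any 1 of the WT_CD arrays Gulo and Slc1a2 lost their calls, as did Gulo without KI_MR replicate 3 and Slc1a2 without KI_MR replicate 1 or 3 (adjusted p up to 0.062 and 0.102). Lect2 was called only without KI_CD replicate 1 or 2 (adjusted p up to 0.195 in the other fits). The best known pericentral genes did not pass: Glul differed by -0.43 (adjusted p = 0.119), Cyp2e1 by 0.02 (adjusted p = 0.896) and Axin2, a target of Wnt, by 0.02 (adjusted p = 0.953).

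Of 15 measured periportal genes, 2 were lower and 0 higher (13.33%, against 2.98% of all genes), with a median of -0.12. Cyp2f2, a periportal cytochrome P450, was at 13.43, 13.47 and 13.50 in WT_CD and at 12.12, 12.21 and 12.27 in KI_MR. Both groups were tight and the fall of 1.26 ± 0.09 (2.40-fold, adjusted p = 0.000138) was called in all 12 fits. Its means in WT_MR (13.08) and KI_CD (13.24) lay close to WT_CD. Kmo, kynurenine monooxygenase, was 1.48-fold lower (-0.56 ± 0.11, adjusted p = 0.0205), lost without any 1 of the WT_CD arrays or without KI_MR replicate 1 or 3 (adjusted p up to 0.0747).

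Of 17 measured clock genes, 1 was lower and 0 higher (5.88%, against 2.98% of all genes), with a median of -0.01, and 1 was higher without WT_MR replicate 3 or KI_MR replicate 1. Bhlhe41, a repressor of the clock, was at 6.64, 6.58 and 6.49 in WT_CD and at 5.21, 5.49 and 5.04 in KI_MR, where it was dim. It was at least 2.09-fold lower (-1.32 ± 0.17, adjusted p = 0.0031), and its means were 5.27 in WT_MR and 6.34 in KI_CD. Arntl, the activator of the clock, was at 6.23, 6.21 and 6.11 in WT_CD and at 6.69, 7.49 and 7.70 in KI_MR, without overlap, and its difference of 1.11 ± 0.29 did not pass (adjusted p = 0.0665). Of 18 measured chaperones, 1 was lower and 0 higher (5.56%), with a median of -0.13: Pdia6, a disulfide isomerase of the endoplasmic reticulum (-0.74 ± 0.14, 1.67-fold, adjusted p = 0.0241), lost without WT_CD replicate 1 or 3 or KI_MR replicate 1 or 3 (adjusted p up to 0.107).

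The next lists are tied to progeria itself. Of 15 measured genes of the nuclear lamina and envelope, 5 had an unadjusted p under 0.05 (limma), against 3807 of all 19938 genes. By adjusted p 0 of the 15 were called, with a median of 0.06. There was 1 higher without KI_MR replicate 2, after median centring or with the 6 arrays alone, and 3 with the replicate block. It was also 1 without WT_MR replicate 3 or KI_CD replicate 1. The smallest p among them was that of Emd, emerin of the inner nuclear membrane, at 9.32, 9.22 and 9.29 in WT_CD and at 9.83, 9.50 and 9.71 in KI_MR (0.40 ± 0.10, adjusted p = 0.0514). Lbr, the lamin B receptor, differed by 0.47 ± 0.13 (adjusted p = 0.083). Of 17 measured p53 targets and senescence genes, 1 was higher and 0 lower (5.88%, against 2.98% of all genes), with a median of 0.05. It was Gadd45b, a stress-induced growth arrest gene, at 6.57, 6.75 and 6.83 in WT_CD and at 9.17, 7.93 and 8.79 in KI_MR (3.76-fold, 1.91 ± 0.42, adjusted p = 0.0358). Its WT_MR mean was 9.13, and its call was lost without any 1 of the WT_CD arrays, WT_MR replicate 1, or KI_MR replicate 1 or 3 (adjusted p up to 0.143). Cdkn2a, the p16 and p19Arf locus, differed by -0.12 (adjusted p = 0.393), and Cdkn1a was not analysed here.

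Of 16 measured cell cycle genes, 1 had an unadjusted p under 0.05 (limma), against 3807 of all 19938 genes. By adjusted p 0 of the 16 were called. Of the 16, 14 lay below 0 (37.5% of all genes lay above 0), with a median of -0.24 against -0.05 over all genes. The count lower was 5 without KI_CD replicate 1, 1 without KI_MR replicate 2 or WT_MR replicate 3, 2 with the 6 arrays alone, and 1 with quantile normalization, dim genes left out, the trend and robust prior, array weights or the replicate block. In both groups 4 of them were dim. Ccne1, cyclin E1, had the smallest p (-0.69 ± 0.17, adjusted p = 0.0586). Of 14 measured stellate cell and fibrosis genes, 0 were called (2 at an unadjusted p under 0.05), with a median of -0.15, and 1 was lower without KI_CD replicate 1 or with the 6 arrays alone. Col3a1 and Col1a1, fibrillar collagens, differed by -0.36 (adjusted p = 0.12) and -0.20 (adjusted p = 0.327). Among markers of other cell types, the erythroid gene Alas2 was lower, at 10.30, 10.04 and 10.10 in WT_CD and at 8.63, 9.15 and 7.64 in KI_MR (3.19-fold, -1.67 ± 0.31, adjusted p = 0.019). Only 2 erythroid markers were measured, and the other one differed by -0.01. The T cell gene Cd4 was 1.31-fold lower (-0.39 ± 0.08, adjusted p = 0.0341). It was the 1 called gene of 8 measured T, B and NK cell markers (12.5%, against 2.98% of all genes). Of these 8, 6 lay below 0 and 2 above 0 (37.5% of all genes lay above 0), and 3 were dim in both groups. Alas2 was not called without any 1 of the WT_CD arrays (adjusted p up to 0.089), and Cd4 was called only without WT_MR replicate 2 or 3 or KI_CD replicate 1 or 2 (adjusted p up to 0.143 in the other fits), so not without KI_MR replicate 2.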

How the data were processed

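Per the labels, total RNA of frozen mouse liver was hybridised to Affymetrix arrays, and the deposited value table holds 1 intensity per probe set and array on a linear scale. The summarisation and scaling the authors used are not given in the sources used here. Deposited intensities ran from 10 to 20042, with array medians of 82 to 90, and were used as given after taking log2. Of 35512 probe sets, 21789 carry a single gene symbol, and the brightest one over all 12 arrays stood for each of 19938 genes. Group means were fitted to all 12 arrays with limma 3.58.1 in R 4.3.3 (8 residual and 3.14 prior degrees of freedom), with 2-sided tests and Benjamini-Hochberg adjustment over all genes. The pipeline was tested on simulated data. Gene lists are described by counts and medians without a test.

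Genes were named by a rule: the 10 largest rises and falls among called genes without overlap, predicted loci and clones left out, up to 4 members of each list with the smallest p, and a set of genes of interest. Other named genes were chosen after their values were seen. The members and lists were chosen with earlier results of these data known. With 3 arrays per group, their number limits the precision. Promoter windows come from RefSeq (GRCm38.p6). Alternatives are listed in the closing section.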

Additional observations from a re-analysis of the deposited data

Results flagged for a closer look

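Probe sets without a single gene symbol were left out of the comparisons above. Among 13723 of them, 25 were higher and 22 lower in KI_MR than in WT_CD (limma, adjusted over these probe sets), and 1964 had an unadjusted p under 0.05. The largest rise was in probe set 10359593, from a mean of 5.98 in WT_CD to 11.82 in KI_MR (difference 5.84, adjusted p = 0.00904). Probe set 10505266 was at a mean of 8.02 in WT_CD and dim in KI_MR (4.38), so it was at least 5.70-fold lower there (measured difference -3.64, adjusted p = 0.000587). Among the lower probe sets that were not dim in KI_MR, 10608668 had the largest fall, from 12.38 to 9.24 (difference -3.15, adjusted p = 0.024). The tables used here name no single gene for these 3 probe sets.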

How the results depend on the processing

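Counts below are genes higher and lower in KI_MR against WT_CD (369 and 226), higher and lower in KI_CD against WT_MR (90 and 57), and called in both in opposite (19) or the same (14) directions. Leaving out 1 array at a time gave 79 to 522 and 67 to 354, 7 to 209 and 4 to 129, and 3 to 69 and 2 to 47. With array weights they were 772 and 616, 2322 and 2482, and 226 and 376; that estimate did not converge and gave 1 array, WT_MR replicate 1, a weight of 16.74. With gene-by-gene weights, added after seeing the data, they were 768 and 599, 1103 and 686, and 130 and 194. With the 6 arrays of each comparison fitted alone, the KI_CD counts were 4 and 5, with 3 opposite and 0 in the same direction, while KI_MR kept 277 and 235. Higher genes in KI_CD were 50 after median centring and 57 with an intensity trend and robust prior. The replicate block moved the lower genes in KI_MR to 364 and the same-direction count to 25. The labels do not say that a number marks a shared batch. Deviations from the group means of same-numbered arrays correlated at -0.059 to 0.244 over the 18 pairs, 16 of them above 0 and 9 over 0.1 (0.157, -0.059 and 0.063 for KI_MR with WT_CD), and in 0 of the 6 pairs of groups were all 3 over 0.1, the level set for a pairing, so the block is an alternative only. Quantile normalization, removal of the dimmest 25% or 50% of genes, averaged probe sets and the block kept the higher count in KI_MR at 341 to 532. Of the genes named by the rule, Agt, Agtr1a, Apcs, Bst2, Cth, Cyp8b1, Gamt, Gsr, Hsd3b7, Lect2, Serpina4-ps1, Slc51b and Slc6a6 lost their calls in KI_MR with the 6 arrays alone, Apcs, Cyp2a22, Cyp7b1, Cyp8b1, Gadd45b, Gsr, Serpina4-ps1, Slc51b, Slco1a1 and Sult2a8 with the trend and robust prior, and Bst2, Cyp8b1, Hsd3b7, Kmo, Lect2, Oas2, Oasl1 and Sult2a8 after median centring. Quantile normalization ended the calls of Cyp8b1, Gamt, Lect2, Srebf2 and Sult2a8, averaged probe sets that of Cyp8b1, and the replicate block that of Cth. Over the fits without 1 array Fgf21 (0.05) ran from -0.15 to 0.23, with 0 without WT_CD replicate 2 and -0.15 without KI_MR replicate 1.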

Other observations

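The gene families below were chosen after their values were seen, and their counts are a description. Over all genes 1.85% were called higher and 1.13% lower, and 37.5% lay above 0. Cytosolic ribosomal protein genes lay slightly higher in KI_MR than in WT_CD: of 60 measured, 9 were called higher, 0 lower and 56 were above 0, with a median of 0.24 against -0.05 over all genes. Rpl8 (0.63) and Rps18 (0.46, limma, adjusted p = 0.011) were among the 9. Rps18 was not called without WT_CD replicate 1 or KI_MR replicate 3, and Rpl8 not without WT_CD replicate 1 or 2 or KI_MR replicate 1 or 3 (adjusted p up to 0.0582 and 0.117). Of 18 measured cytosolic tRNA synthetases, which charge tRNAs with amino acids, 3 were higher and 15 above 0, with a median of 0.36. Gars rose by 0.99 ± 0.20 (adjusted p = 0.0268), lost without any 1 of the WT_CD arrays or without KI_MR replicate 1 or 3 (adjusted p up to 0.116).

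The carboxylesterase family split: of 16 measured, Ces1b was higher and 3 were lower. Ces1b was at 9.98, 10.54 and 9.76 in WT_CD and at 11.92, 11.69 and 11.71 in KI_MR (3.20-fold, 1.68 ± 0.20, adjusted p = 0.00217). Ces3a was at 13.28, 13.10 and 13.24 in WT_CD and at 10.78, 11.88 and 10.98 in KI_MR (3.98-fold lower, -1.99 ± 0.25, adjusted p = 0.00269). Both were called in all 12 fits without 1 array. All 6 measured genes of the Nat8 family lay below 0, with a median of -0.52 and 2 called. Nat8f5 was at 8.12, 7.46 and 8.74 in WT_CD and at 5.52, 5.36 and 5.17 in KI_MR, with means of 7.78 in WT_MR and 5.63 in KI_CD. All 8 measured guanylate-binding protein genes, which interferon induces, lay below 0, with a median of -0.50 and 3 lower (Gbp2b, Gbp3 and Gbp4). Gbp2b was not called without WT_CD replicate 1 or 2 or KI_MR replicate 1 or 3, Gbp3 not without WT_CD replicate 1 or 2 or KI_MR replicate 3, and Gbp4 not without WT_CD replicate 1 or 2, WT_MR replicate 1 or KI_MR replicate 1 or 2 (adjusted p up to 0.0779, 0.0521 and 0.144). The Kupffer cell and macrophage markers had the same sign (11 of 11 below 0, median -0.34), and their part in these genes was not tested.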
